A study of Rattus norvegicus with 3 samples.

Results

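The genes described here serve the transport of calcium and salt in the distal convoluted tubule and the connecting tubule, the nephron segments between the loop of Henle and the collecting duct. They were taken by name: all probe sets of the array whose only gene symbol in the platform annotation was Calb1, Slc8a1, Slc12a3, Trpv5, Trpv6, S100g, Pvalb, Atp2b1, Vdr or Stk39. These 10 genes, of 14218 genes with a symbol on the array, had 15 probe sets. No measured value entered the choice rule, although the genes were listed with earlier results of these data known.

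In these segments calcium is reabsorbed through the cells. It enters from the urine through the channels TRPV5 and TRPV6, is carried across the cell by calbindins, and leaves on the blood side through the sodium-calcium exchanger and the plasma membrane calcium pump, under the control of vitamin D and its receptor. Salt enters the distal convoluted tubule through the thiazide-sensitive cotransporter NCC, encoded by Slc12a3, which is switched on when the kinase SPAK, encoded by Stk39, phosphorylates it.

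The study tested heparin, and a peptide based on the part of the chemokine CCL5 that binds it, for anti-inflammatory effects in kidneys reperfused with blood. Male Wistar rats of 370 to 508 g were used, and there were 3 groups of 7 recipients: recipients given heparin at 100 U/ml/h, recipients given peptide 2 at 0.5 mg/ml, and control recipients given normal saline at 1 ml/h. Every donor kidney, in the control group too, had 20 min of warm ischaemia, 17 ± 0.7 h of cold storage in University of Wisconsin solution and 5 h 43 min ± 21 min of perfusion from the femoral artery of a live recipient, so no group stands for an uninjured kidney. The kind of error behind these ± values is not stated in the sources used, and they describe the treatments both as a bolus and as an infusion. RNA of 3 kidneys per group, those with the best RNA, was pooled in equimolar amounts and read on 1 Affymetrix array per group. The pools hide the spread between animals, and with 1 array per group no difference has a replicate check or a test.

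The values are GCRMA expression values on a log2 scale, as deposited. The array medians over 31099 probe sets were 4.16 in the heparin pool, 4.14 in the peptide pool and 4.14 in the control pool. All 3 arrays shared the same lowest value, 2.18. A gene was called measured in a comparison when its probe set with the highest mean lay at or above the median on both arrays, and called different at 2-fold, a log2 difference of at least 1. Many differences were exactly 0: of 9231 genes measured on all 3 arrays, 22.4% had 3 identical values, which the summarisation of probes can give and which does not show equal abundance. The labelled tissue was borne out by kidney genes above the median on all 3 arrays, namely 11 of 11 proximal tubule markers on the array, 5 of 6 thick ascending limb markers and 4 of 6 principal cell markers. Of 12 skeletal muscle markers 8 were at the lowest value on all arrays and 1 was above the median, and of 7 neuron markers 5 were at the lowest value and 1 was above the median.

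Of the 10 genes, 6 were measured on all 3 arrays: Calb1, Slc8a1, Slc12a3, S100g, Atp2b1 and Stk39. The other 4, Trpv5, Trpv6, Pvalb and Vdr, lay below the median on every array in all of their probe sets. Calb1 alone was at least 2-fold lower in heparin than in control, and none of the 6 was at least 2-fold higher. Over all 9236 genes measured in that comparison, 0.747% were at least 2-fold lower and 1.06% at least 2-fold higher. In the peptide pool none of the 6 reached 2-fold against control, where 0.119% of 9268 measured genes were at least 2-fold lower and 0.723% at least 2-fold higher. Calb1 was again the 1 gene at least 2-fold lower in heparin than in peptide, where 0.844% of 9240 measured genes were that much lower and 0.281% that much higher. That split was 78 genes lower and 26 higher as deposited, and 57 and 36 with quantile normalization. It was 60 and 35 with each array centred on its median over the genes measured on all 3 arrays.

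**Figure D1:**
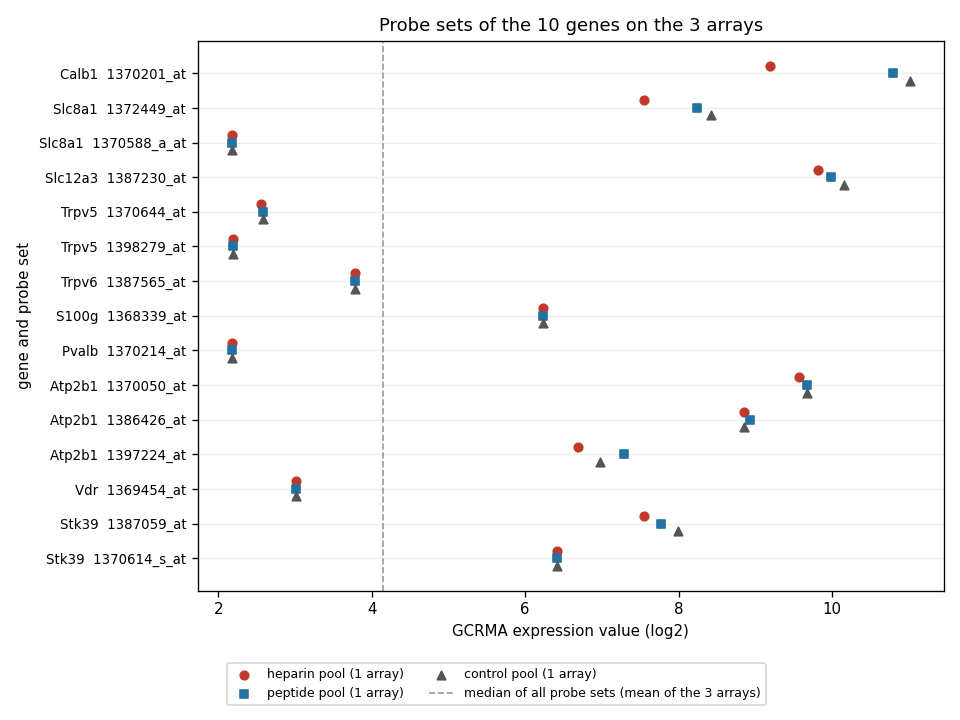
GCRMA log2 expression value (horizontal axis) of the 15 probe sets of the 10 genes (vertical axis) in the heparin, peptide and control pools, 1 array each. The heparin point of Calb1 (9.18) stands apart from the peptide (10.79) and control (11.01) points, and the probe sets of Trpv5, Trpv6, Pvalb and Vdr lie left of the dashed median line.

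The calcium carriers inside the cell come first. Calb1 encodes calbindin-D28k, the abundant calcium-binding protein of the distal convoluted and connecting tubule, which shuttles calcium across the cell and buffers it. Its 1 probe set, 1370201_at, read 9.18 in the heparin pool, 10.79 in the peptide pool and 11.01 in the control pool. The heparin pool was thus low, and the peptide and control pools lay close together. The log2 difference was -1.83 for heparin minus control, 3.56-fold lower in heparin, and only 5 of the 9236 measured genes had a lower difference. Against the peptide pool the heparin pool was lower by a log2 difference of -1.61, or 3.04-fold, with 13 of 9240 genes lower still. The peptide minus control difference was -0.22 (1.17-fold lower in peptide), and 588 of 9268 genes lay below it. In pooled kidney RNA, fewer connecting tubule cells and less Calb1 RNA per cell cannot be told apart.

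S100g encodes calbindin-D9k, the small calbindin best known for carrying calcium across the intestinal wall. Its 1 probe set, 1368339_at, read 6.23 in each of the 3 pools, so that all 3 differences were exactly 0. Such a tie occurred in 30.1% of the measured genes for heparin minus control. Pvalb encodes parvalbumin, a calcium buffer of fast muscle and of some neurons that marks the early distal convoluted tubule in mice. Its probe set 1370214_at read 2.18, the lowest value of the arrays, in the heparin, peptide and control pools alike. The tie of S100g does not show that its transcript was equally abundant in the pools, and the parvalbumin probe set gave no signal above the lowest value.

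The exit step on the blood side had 2 genes. Slc8a1 encodes NCX1, the sodium-calcium exchanger that moves calcium out of connecting tubule cells and that heart and smooth muscle also make. Its probe set 1372449_at read 7.55 in the heparin pool, 8.24 in the peptide pool and 8.43 in the control pool. The heparin pool was again the lowest, with log2 differences of -0.88 against control (1.84-fold lower in heparin) and -0.69 against peptide (1.62-fold lower in heparin). For heparin minus control 101 of 9236 genes had a lower difference, and Slc8a1 and Calb1 were the 2 genes of the 6 at least 1.5-fold lower, a size reached by 3.37% of all measured genes, with 3.04% that much higher. The same pair was at least 1.5-fold lower in heparin than in peptide, against 4.57% of all measured genes lower and 1.62% higher by that much. The peptide minus control difference of Slc8a1 was -0.18, and none of the 6 genes reached 1.5-fold there, where 0.917% of all genes were that much lower and 2.11% higher. The second probe set of Slc8a1, 1370588_a_at, read 2.18 in all 3 pools, within 0.01 of the lowest value, so the difference rests on 1 probe set. With the mean of both probe sets Slc8a1 differed by -0.44 for heparin minus control and by -0.35 for heparin minus peptide, and it no longer reached 1.5-fold in either comparison.

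Atp2b1 encodes PMCA1, a plasma membrane calcium pump made by most cells. Its 3 probe sets were all above the median. The one with the highest mean, 1370050_at, read 9.57 in the heparin pool, 9.67 in the peptide pool and 9.67 in the control pool. The second, 1386426_at, read 8.85 in the heparin pool, 8.93 in the peptide pool and 8.85 in the control pool. The third, 1397224_at, read 6.68 in the heparin pool, 7.29 in the peptide pool and 6.98 in the control pool. The heparin minus control differences of the 3 probe sets were -0.10, 0.00 and -0.30, and the peptide minus control differences were 0.00, 0.08 and 0.31. The probe sets thus differed among themselves, and the widest gap, a heparin minus peptide difference of -0.61, came from the probe set with the lowest mean.

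The entry step could not be followed. Trpv5 and Trpv6 encode the calcium channels of the urine side and lie next to each other on chromosome 4 of the rat, with 0 annotated genes between them. The Trpv5 probe set 1370644_at read 2.55 in the heparin pool, 2.58 in the peptide pool and 2.58 in the control pool. The other, 1398279_at, read 2.19 in all 3. The probe set of Trpv6, 1387565_at, read 3.78 in all 3 pools, the value nearest to the filter among the 4 genes that were not measured. Vdr encodes the vitamin D receptor, the nuclear receptor that raises transcription of the calbindin and calcium channel genes. Its probe set 1369454_at read 3.02 in the heparin, peptide and control pools. All of these values lie below the array medians, where a difference near 0 says nothing about the transcript.

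The salt genes followed. Slc12a3 encodes NCC, the defining transporter of the distal convoluted tubule and the target of thiazide diuretics. Its probe set 1387230_at read 9.82 in the heparin pool, 9.99 in the peptide pool and 10.16 in the control pool. The log2 differences were -0.34 for heparin minus control (1.27-fold lower in heparin), -0.17 for peptide minus control and -0.18 for heparin minus peptide. Of the 9236 genes, 916 (9.92%) had a lower heparin minus control difference, so the value is not far out among all genes. Stk39 encodes SPAK, the kinase that phosphorylates NCC and its relative NKCC2. Its probe set 1387059_at read 7.55 in the heparin pool, 7.77 in the peptide pool and 7.99 in the control pool, with differences of -0.44 for heparin minus control (1.36-fold lower in heparin) and -0.22 for peptide minus control. Its second probe set, 1370614_s_at, also above the median, read 6.42 in all 3 pools. The 2 probe sets of Stk39 therefore do not give the same picture.

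The pools came in the same order, heparin lowest and control highest, for the higher probe sets of Calb1, Slc8a1, Stk39 and Slc12a3. The share of all measured genes in this order was not counted, so the order cannot be called particular to these genes. For heparin minus control, 5 of the 6 measured genes had a difference below 0, 1 was at exactly 0 and none was above 0. Their median was -0.39, beside a median of 0.00 over all 9236 measured genes, of which 44.2% were below 0 and 25.8% above. For peptide minus control 4 were below 0 and 2 at exactly 0, with a median of -0.17, beside 0.00 over all genes, of which 28.5% were below 0, 32% above and 39.5% at exactly 0. Both comparisons use the same control array, so a high control value would lower both differences of a gene. Heparin minus peptide does not use that array, but it shares the heparin array with heparin minus control, so it is no independent check. It gave 5 of 6 below 0 and a median of -0.20. Of all measured genes 43.7% were below 0 there, 26.8% above and 29.5% at exactly 0, with a median of 0.00. With all 10 genes and no filter the medians were -0.07 for heparin minus control, 0.00 for peptide minus control and -0.07 for heparin minus peptide.

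**Figure D2:**
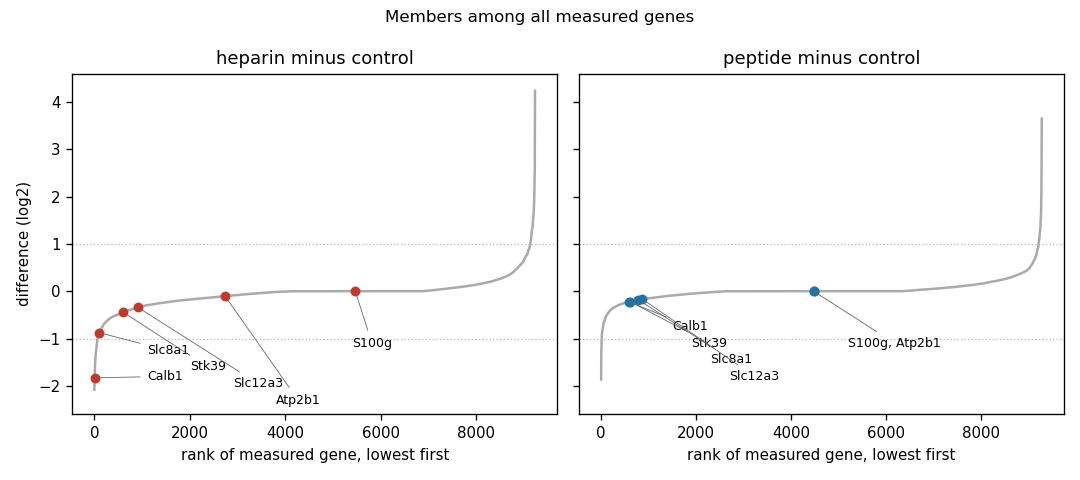
Log2 difference (vertical axis) of every measured gene against its rank (horizontal axis, lowest first) for heparin minus control (left, 9236 genes) and peptide minus control (right, 9268 genes), with the 6 measured members as points and dotted lines at 2-fold. Calb1 lies at the low end of the heparin curve (-1.83) and at -0.22 on the peptide curve, and genes at exactly 0 are drawn at the middle of the flat stretch.

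The sequence before the annotated start is shown for Slc8a1, Slc12a3 and Stk39, the genes whose highest probe set, like that of Calb1, was lowest in heparin, between the others in peptide and highest in control, with no tie, and that have an entry in the RefSeq promoter table of the GRCr8 assembly. That table held 8 of the 10 genes, and had no entry matched for Calb1 and S100g. The 250 bases before the start are chr6:19023309-19023558 on the plus strand for Slc8a1, chr19:10675051-10675300 on the minus strand for Slc12a3 and chr3:73586980-73587229 on the minus strand for Stk39. They were searched for 4 motifs. These were the TATA box TATAAA on the strand of the gene, and on both strands the nuclear receptor half-site AGGTCA, the steroid receptor half-site AGAACA and GTTAAT, one arm of the site of the kidney factor HNF1. Capitals mark the matches, which do not overlap each other.
Slc8a1: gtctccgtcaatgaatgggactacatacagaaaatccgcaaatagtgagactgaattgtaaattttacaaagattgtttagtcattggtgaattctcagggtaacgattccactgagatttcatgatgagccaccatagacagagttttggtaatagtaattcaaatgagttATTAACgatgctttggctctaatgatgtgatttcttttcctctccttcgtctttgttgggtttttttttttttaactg
Slc12a3: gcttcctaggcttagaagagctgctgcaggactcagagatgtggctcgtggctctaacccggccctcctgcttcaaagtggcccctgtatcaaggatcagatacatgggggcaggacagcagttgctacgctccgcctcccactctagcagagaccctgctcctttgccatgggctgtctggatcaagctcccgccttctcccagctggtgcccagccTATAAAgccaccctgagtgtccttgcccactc
Stk39: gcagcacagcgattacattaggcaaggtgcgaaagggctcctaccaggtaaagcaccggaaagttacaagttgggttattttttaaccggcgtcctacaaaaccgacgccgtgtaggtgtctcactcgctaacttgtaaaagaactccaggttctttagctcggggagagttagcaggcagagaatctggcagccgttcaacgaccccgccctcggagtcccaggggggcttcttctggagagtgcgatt

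Slc12a3 held a TATA box beginning 32 bases before the start, a motif found in 8.06% of 33469 promoters of the table at this length. Slc8a1 held the HNF1 half-site on the opposite strand, beginning 78 bases before the start, and 6.45% of promoters hold that motif on either strand. The Stk39 sequence held none of the 4 motifs. The half-sites AGGTCA and AGAACA, absent from all 3, occur in 14.1% and 17.5% of promoters. None of the 4 motifs occurred in more than 1 of these 3 windows. A gene can start elsewhere in the kidney than at the start used by the table, and the arrays do not show which start was in use.

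Genes that work with these transporters were described from lists. Of 18 genes of distal salt transport and its kinases, 15 were on the array and 13 were measured, and 0 of them were at least 2-fold different in heparin against control. Their heparin minus control median was -0.08, with 9 below 0 and 2 above, and their peptide minus control median was 0.03. Hsd11b2, the enzyme that shields the mineralocorticoid receptor from glucocorticoids, had the largest heparin difference, -0.40, with values of 9.33 in heparin, 9.85 in peptide and 9.73 in control. Fxyd2, the gamma subunit of the sodium pump, differed by -0.25 and the kinase Sgk1 by -0.18 in heparin minus control. Their peptide minus control differences were 0.12 for Hsd11b2, 0.10 for Fxyd2 and 0.13 for Sgk1.

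Of 22 genes of calcium and magnesium handling, 18 were on the array and 10 were measured in heparin against control, with a median of -0.02 and 0 at least 2-fold different. Trpm7, a cation channel fused to a kinase that admits magnesium and calcium, read 9.80 in heparin, 9.94 in peptide and 10.73 in control. Here both treated pools were low, with differences of -0.93 for heparin and -0.79 for peptide against control, unlike Calb1, which was low in heparin and near control in peptide. The tight junction gene Cldn19 differed by -0.39 and the calcium-sensing receptor Casr by -0.32 in heparin minus control. The peptide minus control differences were 0.00 for Cldn19 and -0.21 for Casr.

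The connecting tubule is also where sodium and potassium are exchanged, and 8 of the 10 genes listed for this were measured. Their median was -0.23 for heparin minus control, 0.16 for peptide minus control and -0.28 for heparin minus peptide. In heparin minus control 6 were below 0, 1 above and 1 at exactly 0. Over all measured genes 44.2% were below 0 and 25.8% above. Klk1, the kallikrein secreted by connecting tubule cells, was the 1 gene of the list at least 2-fold different, with 8.43 in heparin, 10.92 in peptide and 10.12 in control. It was 3.21-fold lower in heparin than in control, and, unlike Calb1, it was 1.75-fold higher in peptide than in control. Scnn1a, the alpha subunit of the epithelial sodium channel, read 8.95 in heparin, 9.68 in peptide and 9.45 in control. The other subunits of this channel were not lower in heparin. Scnn1b read 6.43 in all 3 pools, and Scnn1g read 7.04 in heparin, 7.04 in peptide and 6.90 in control. The potassium channel gene Kcnj1 read 9.76 in heparin, 9.37 in peptide and 10.02 in control, lowest in peptide.

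Markers of the other nephron cells were set beside these genes. The collecting duct water channel Aqp2 was 0.26 and Aqp3 0.29 higher in heparin than in control on the log2 scale, and Aqp4 differed by -0.47, with a list median of 0.19 over 4 measured genes. The 7 measured intercalated cell markers had a median of 0.10, with Slc26a4 at 0.47, Atp6v1g3 at 0.37 and the ammonia transporter Rhcg at -0.65. In the thick ascending limb the median was 0.00 over 5 genes, with the cotransporter Slc12a1 at -0.11, Umod at 0.17 and the prostaglandin receptor Ptger3 at 0.63. Ptger3 was the only member of that list at least 2-fold different in any comparison, at 10.19 in heparin and 9.02 in peptide. The 11 measured proximal tubule markers had a median of 0.03, with Slc5a12 at -0.82, Slc5a2 at -0.52 and Slc22a6 at 0.33. None of the measured genes of these 4 lists was at least 2-fold different in heparin against control.

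**Figure D3:**
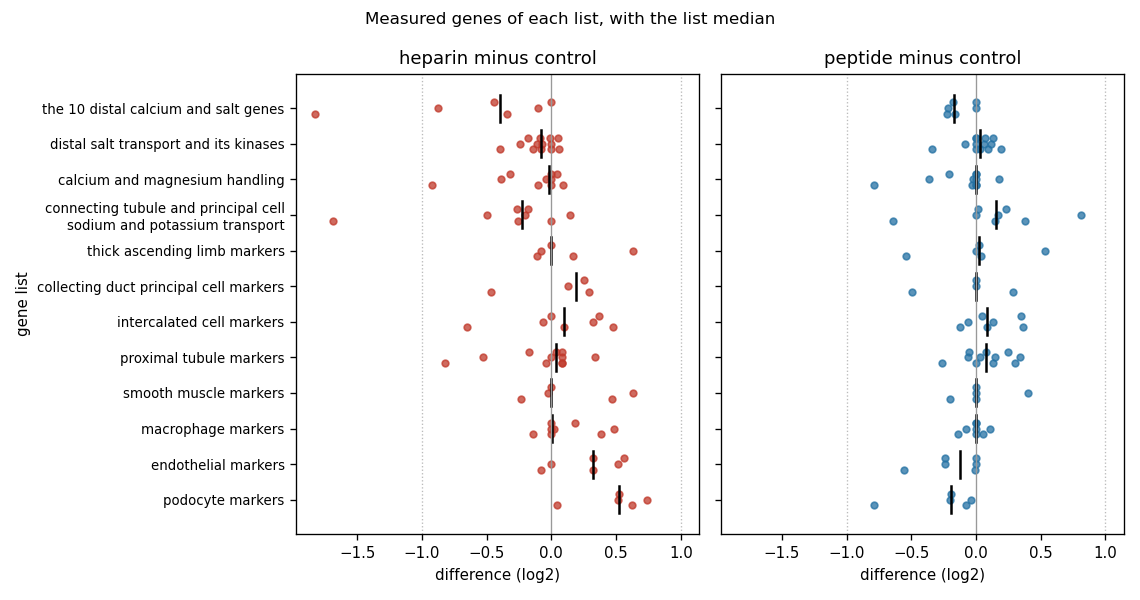
Log2 differences (horizontal axis) of the measured genes of each list (vertical axis), for heparin minus control (left) and peptide minus control (right), 1 point per gene, with a black bar at the list median and dotted lines at 2-fold. The medians of the 10 distal genes (-0.39, 6 measured) and the connecting tubule list (-0.23, 8 measured) lie left of 0 with heparin. That of the podocyte markers (0.52, 5 measured) lies right of it.

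Marker transcripts of other kidney cells also differed between the pools. All 5 measured podocyte markers were higher in heparin than in control, with a median of 0.52, Podxl at 0.74, Ptpro at 0.62 and Wt1 at 0.52. Against peptide, Wt1 was 2.49-fold higher in heparin. The summed unlogged level of the podocyte markers was 2930 in heparin, 1787 in peptide and 2011 in control. The 6 measured endothelial markers had a heparin minus control median of 0.32, with Flt1 at 0.56, Emcn at 0.51 and Kdr at 0.32. Of these 6 markers, 4 were above 0, 1 was below 0 (-0.08) and 1 was at exactly 0. The Flt1 value came from its highest probe set. Its other probe sets, also above the median, differed by 0.09 and 0.00. The summed endothelial level was 4638 in heparin, 3269 in peptide and 3830 in control. The part of these cell types in the values of the distal genes was not tested.

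Cells that could add to single genes were looked at in the same way. For smooth muscle, which makes Slc8a1, 5 of 6 markers were above the median on all 3 arrays, with a summed level of 1024 in heparin, 978 in peptide and 875 in control. Its marker Myh11 differed by 0.63, Tagln by 0.47 and Smtn by -0.24 in heparin minus control. The smooth muscle median was 0.00 over 5 measured genes, with 2 above 0, 2 below 0 and 1 at exactly 0. For fast muscle and neurons, which make parvalbumin, the defining markers Ckm and Actn3 and the neuronal Snap25 were at the lowest value, and the neuron list had Map2 at 6.93 in all 3 pools. The muscle myosin Myh1 was the exception, at 14.48 in heparin, 12.17 in peptide and 13.04 in control. Macrophage markers, 8 of 9 above the median, had a summed level of 1747 in heparin, 1570 in peptide and 1556 in control, with Cd68 at 0.48, Cd14 at 0.39 and C1qb at 0.18. The macrophage median for heparin minus control was 0.01 over 8 measured genes, with 4 above 0, 1 below 0 and 3 at exactly 0.

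As a sign of RNA integrity, the value of the beta-actin probe set at the 3' end minus that at the 5' end was 2.95 in heparin, 2.34 in peptide and 2.33 in control on the log2 scale. The gap of GAPDH was 0.32 in heparin, 0.37 in peptide and 0.36 in control, and that of hexokinase was 2.18 in heparin, 2.28 in peptide and 2.18 in control. The wider actin gap moved with the lower heparin values of Calb1 and Slc8a1, and its part in them was not tested.

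Genes with the pattern most like that of Calb1 were sought over its 2 differences against control, by Euclidean distance among genes measured on all 3 arrays. Symbols made of LOC or RGD and a number were left out of this search. The 5 nearest were Tpcn2, an endolysosomal cation channel (distance 0.15), the matrix-degrading enzyme Mmp3 (0.17), the organic anion transporter Slc22a13 (0.19), Golph3, a Golgi membrane protein (0.21), and Pik3r1, a regulatory subunit of PI3-kinase (0.22). Tpcn2 read 4.20 in heparin, 5.86 in peptide and 5.95 in control, and its heparin value lies just above the array median. Golph3 read 6.45 in heparin, 8.26 in peptide and 8.48 in control, and Mmp3 read 5.51 in heparin, 7.36 in peptide and 7.47 in control. Each of the 5 has 1 probe set with a single symbol, and the likeness rests on 3 arrays. None of the other 9 distal genes was among them, which adds nothing to the values given above. Trpv5, Trpv6, Pvalb and Vdr were not measured and so could not be found. The next largest heparin minus control difference of a member, -0.88 for Slc8a1, is far from the -1.83 of Calb1.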

How the data were processed

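Per the labels' protocols, total RNA of 3 kidneys per group was pooled, and biotin-labelled cRNA from 6 µg was hybridised to 1 Affymetrix array per group. The authors deposited 1 log2 expression value for each probe set and array, made with GCRMA, per the submitters' processing notes. The sources used here give neither its version and settings nor whether arrays were normalized to each other. Deposited values were not changed for the main results. Of 31099 probe sets, 20832 had 1 symbol in the platform annotation, 436 several and 9831 none, and only the first kind was used. All 10 gene IDs carried the same symbol in RefSeq (GRCr8). Each gene was represented by the probe set whose mean across arrays was highest. Differences of log2 values were taken with Python 3.11.15 and pandas 2.3.3, and counting was tested on simulated data. Arrays have no read depth, and 1 array per group limits the precision, so no p-value or replicate SD is given.

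The members, 13 other lists (132 entries, 117 on the array) and all rules were chosen with earlier results of these data known. Named were all 10 members and, from each list, the 3 measured genes with the largest heparin minus control difference, any gene called in a comparison, and the 5 genes nearest to Calb1. Ckm, Actn3, Snap25, Myh2, Myh4, Nphs1, Scnn1b, Scnn1g and Wnk1 were named outside that rule, after their values were seen. The alternatives were other filters, scalings, probe set rules and a 1.5-fold threshold.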

Additional observations from a re-analysis of the deposited data

How the results depend on the processing

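Differences of the 6 measured genes were recomputed under 8 other settings: filters at the 40th and 60th percentile or none, quantile normalization, median centring, 32 added to the unlogged values, and the mean or the median of a gene's probe sets. All 144 values stayed within 1.5-fold of the reported ones. Part of this is by construction. The filters change only which genes count as measured, so under them every value equals the reported one. The mean and median of probe sets cannot move a gene with 1 probe set, such as Calb1. Its ranges therefore rest on the scalings and the 32 added. Calb1 ranged from -1.83 to -1.77 for heparin minus control, from -1.61 to -1.55 for heparin minus peptide and from -0.25 to -0.22 for peptide minus control. Slc8a1 ranged from -0.88 to -0.44 and Stk39 from -0.44 to -0.22 for heparin minus control, their smallest sizes coming from averaging with the probe set that read the same in all 3 pools. S100g, at exactly 0 as deposited, ranged from 0.00 to 0.06 for heparin minus control, and Atp2b1 from -0.02 to 0.13 for peptide minus control. The number of members at least 2-fold different was the same under these settings. At 1.5-fold it was 2 (Calb1 and Slc8a1) for heparin minus control, 2 for heparin minus peptide and 0 for peptide minus control, by the construction of the lower threshold. With the mean of probe sets Slc8a1 falls short of 1.5-fold in both, at -0.44 and -0.35. The count of all measured genes at least 2-fold lower in heparin than in control was 69, and 40 with 32 added. For peptide minus control it was 11, 7 with the 60th percentile and 6 with 32 added. For heparin minus peptide the 78 lower became 40 with 32 added, and the 26 higher became 16 with the 60th percentile, 15 with 32 added, 13 with the mean of probe sets and 49 with no filter. No paired analysis was possible because each group has 1 array, and for the same reason no replicate could be left out.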
